A study of Arabidopsis thaliana with 2 samples.

Results

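Of the 529 peaks of a LEAFY (LFY) ChIP-seq experiment in Arabidopsis thaliana, 95 lay nearest to the promoter of a gene whose deposited description is only "hypothetical protein". These 95 peaks belonged to 93 of the 512 loci with a peak, and they were chosen by that description and by no measured value. The description stood in 97 rows, and the 2 peaks of AT2G31160 (LSH3), a characterised boundary gene, were left out and counted with the 434 other peaks. LFY was precipitated from inflorescences of ap1 cal1 plants that carried 35S;LFY-GR, in which the constitutive 35S promoter drives LFY fused to the hormone-binding domain of the glucocorticoid receptor. The plants were 4 weeks old and had been treated with 10 µM dexamethasone, which lets the fusion enter the nucleus, 4 h before harvest. A rabbit serum raised against LFY gave 1 ChIP library, and chromatin of the same genotype, construct and treatment gave 1 input library. Both libraries therefore carry the ap1 and cal1 mutations and the dexamethasone treatment, and neither stands for untreated plants. The serum can also bind LFY that is not part of the fusion. The design has no replicates, so the spread between libraries is unknown and conditions could not be tested against each other. The header of the peak list names a peak set LFYGR2 where the ChIP library is titled LFYGR, and the list was taken to be that of this library. The depth of the libraries is unknown, and all intervals cover counting error only.

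LFY is a plant-specific transcription factor that turns new lateral meristems into flowers, in part by binding near other floral regulators. A gene is called a hypothetical protein when its reading frame was predicted but no function had been assigned when the annotation was made. The label therefore describes the state of annotation and groups genes of unrelated kinds. A peak was assigned to the gene with the nearest transcription start site (TSS), which does not show that the gene responds to LFY.

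Some of these peaks were among the strongest of the whole list. Of the 20 highest-scoring peaks, 7 (35.0%, 95% Wilson interval 18.1 to 56.7) lay nearest to a hypothetical protein gene, against 18.0% of all peaks (14.9 to 21.5), and the intervals overlapped. Of the 50 highest-scoring peaks 11 did (interval 12.8% to 35.2%), and of the 100 highest-scoring 21 did (21.0%, 14.2 to 30.0). The score was assigned by the authors' peak caller and is used here only to order peaks. Beyond the top the scores were spread as in the rest of the list. Of the 95 peaks, 25 (26.3%, 18.5 to 36.0) were among the 133 highest-scoring of the list, which make up 25.1% of all peaks, and 25 were among the 132 lowest-scoring. The median score was 127 (95% interval of the median 90.8 to 166) for the hypothetical protein genes and 134 (121 to 152) for all other peaks. Their scores ran from 52.4 to 1643.9.

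**Figure D1:**
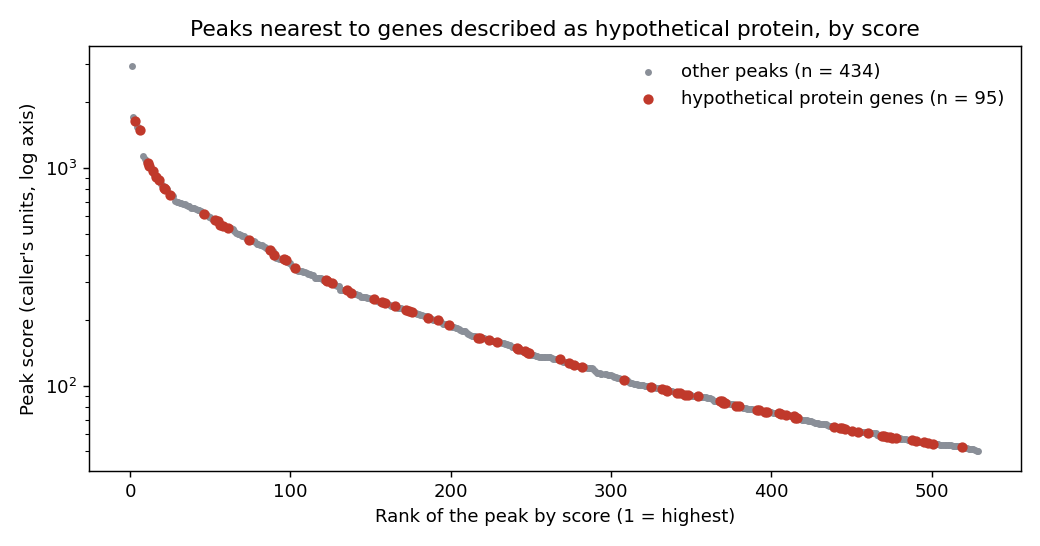
Peak score (log axis, in the caller's units) against the rank of each peak among 529, with the 95 peaks nearest to hypothetical protein genes in red and the 434 other peaks in grey. Red points lie along the whole range, and 7 of them are among the 20 highest.

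The highest score, 1643.9, belonged to a peak on chromosome 5 from 1021260 to 1023294 (TAIR10, as are all positions here), 1406 bp downstream of the TSS of AT5G03837 in intergenic sequence. It ranked 3rd in the list. The peak at AT3G07350 (chromosome 3 from 2346532 to 2347899) had a score of 1493, ranked 6th, and was centred in the promoter 253 bp upstream of the TSS. A second peak at the same gene, centred 1521 bp downstream at its transcription termination site, had a score of 71.4. The centres of the strong and the weak peak were thus on either side of the TSS, and 489 bp separated the edges of the peaks.

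Among the other 5 members in the top 20, promoter and intergenic positions both occurred. AT3G19870 (score 1021, 519 bp upstream), AT1G30016 (965, 361 bp upstream) and AT4G31875 (905, 460 bp upstream) had promoter peaks. AT1G13360 (score 1051, 1295 bp upstream) and AT2G28671 (877, 1557 bp upstream) had intergenic peaks. Of these genes the file gives no function. AT4G31875 lies next to MIR156c in the gene order, one of the genes for miR156, the microRNA that holds back the SPL genes of phase change and flowering. An adjacent microRNA gene was found for 1 of the 81 hypothetical protein genes with a place in that order (1.23%, 0.218 to 6.67). It was found for 5 of 418 other peak loci (1.20%, 0.512 to 2.77), a similar share.

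The next peaks by score lay both close to the start of the gene and farther from it. AT5G28491 (score 806, chromosome 5 from 10455152 to 10456274) was centred 94 bp downstream of the TSS, and AT3G51720 (804) 338 bp upstream. AT1G16080 (578), AT1G31130 (549.5) and AT5G60630 (380.4) had promoter peaks centred 187, 764 and 180 bp upstream. Intergenic peaks lay 1216 bp upstream of AT3G12835 (573), 2785 bp downstream of the TSS of AT3G62988 (469.7) and 2514 bp upstream of AT2G41810 (421). The remaining 5 of the 20 strongest were annotated to another locus and are described with those peaks below.

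A larger share of the peaks of hypothetical protein genes lay in promoters, and a smaller share in intergenic sequence, than of the other peaks. Promoters held 50 of the 95 (52.6%, Wilson interval 42.7 to 62.4), against 37.8% of the other peaks (33.4 to 42.4) and 40.5% of all peaks. Intergenic sequence held 14 (14.7%, 8.99 to 23.2), against 24.7% of the others (20.8 to 28.9) and 22.9% of all. The region at a transcription termination site held 20 (21.1%, 14.1 to 30.3), against 12.7% (9.87 to 16.1) and 14.2%. The intervals of the 2 sets of peaks overlapped for intergenic and termination site peaks. For promoters they almost met, and they overlapped under 6 of the 9 alternative settings, among them 1 peak per locus and the 133 highest-scoring peaks. Some settings changed the members only and left the 434 other peaks as they were. These kept AT2G31160, which then stood in both sets, took protein-coding members only or left out members with a symbol. These counts describe 1 list of peaks and were not tested, since the members were chosen with earlier results of the same data known.

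Few of the peaks were centred inside a gene body. Exons held 7 of the 95 (7.37%, 3.61 to 14.4), against 13.6% of the other peaks (10.7 to 17.1) and 12.5% of all peaks. Introns held 1 (1.05%, 0.186 to 5.72), against 37 of the 434 others (8.53%, 6.25 to 11.5) and 7.18% of all peaks. These intervals did not overlap, but the share of the 95 rests on 1 peak and the difference was not tested. That intron belonged to LFY itself. The 5' UTR class held 2 peaks, at AT2G26520 (score 127) and AT4G17840 (58.6), and the 3' UTR class held 1. Exon peaks in the member's own gene were those of AT2G21720 (score 377, exon 6 of 10), GXM2 (98.7, exon 2 of 2), CGLD27 (83.7, exon 7 of 7) and AT5G22090 (58.0, exon 2 of 2).

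**Figure D2:**
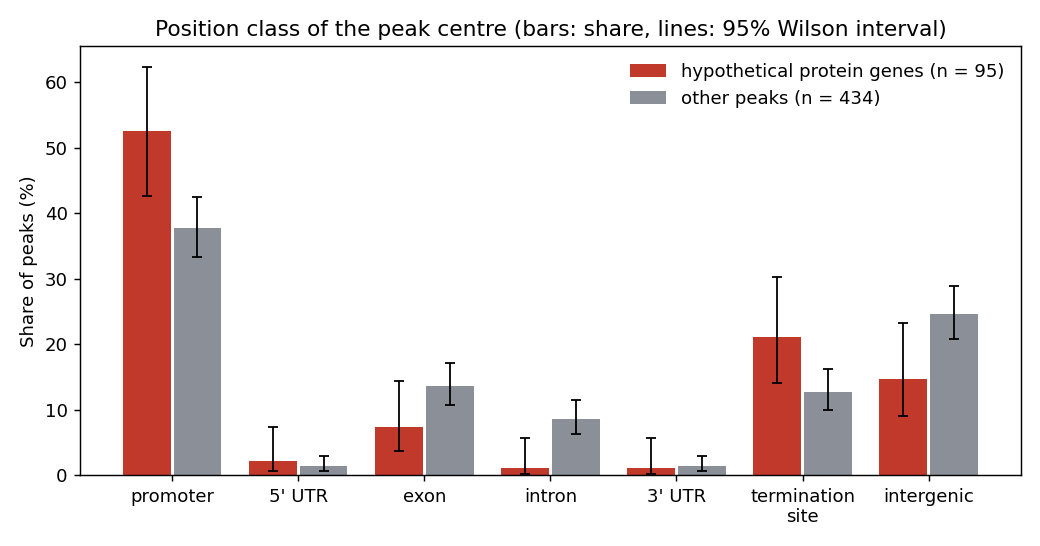
Share of peaks (%) by the position class of the peak centre, for the 95 peaks of hypothetical protein genes (red) and the 434 other peaks (grey), with 95% Wilson intervals that cover counting error only. The promoter share is 52.6% against 37.8% and the intergenic share 14.7% against 24.7%.

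The typical distance to a TSS was shorter too, with intervals that overlapped. Measured from the centre of the peak, the median distance was 511 bp (95% interval 372 to 850) for hypothetical protein genes and 908.5 bp (798 to 995) for the other peaks. Within 1 kb lay 60 of 95 (63.2%, 53.1 to 72.2), against 55.1% of the others (50.4 to 59.7) and 56.5% of all peaks. Within 3 kb lay 92 of 95 (96.8%, 91.1 to 98.9), against 88.5% (85.1 to 91.2) of the others. The largest distances were 4436 bp at AT5G03660, 3782 bp at AT2G23440, 3424 bp at AT1G30475, 2829 bp at AT2G23755 and 2785 bp at AT3G62988, while the other peaks reached 9339 bp. Upstream of the TSS lay 59 of 95 (62.1%, 52.1 to 71.2), against 56.0% of the others (51.3 to 60.6) and 57.1% of all.

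**Figure D3:**
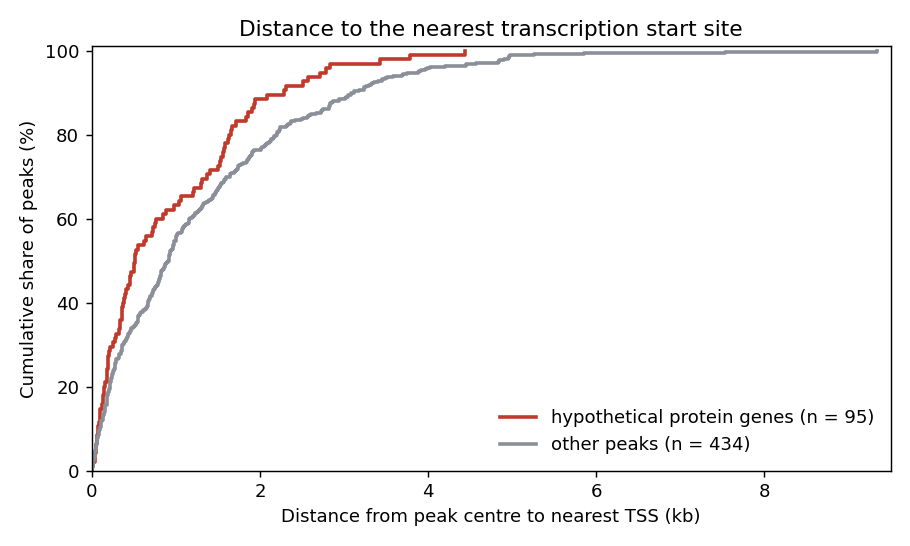
Cumulative share of peaks (%) against the distance in kb between the centre of the peak and the nearest TSS, for hypothetical protein genes (red, n = 95) and other peaks (grey, n = 434). The red curve reaches its median at 511 bp and the grey one at 908.5 bp.

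Widths were close to those of the rest of the list. The median was 1201 bp (1099 to 1394) for hypothetical protein genes and 1159 bp (1109 to 1274) for the others, and 12.6% and 12.7% of the peaks were wider than 2 kb. The widest were those of AT5G61865 (4032 bp), AT2G19090 (3100 bp), AT4G28230 (2883 bp), AT5G22090 (2556 bp) and AT5G54450 (2515 bp). Of these 5, only the peak of AT5G61865 had a high score, and the other scores lay between 58.0 and 124. By chromosome, 19, 21, 20, 13 and 22 of the 95 peaks lay on chromosomes 1 to 5 in that order. These are 20.0%, 22.1%, 21.1%, 13.7% and 23.2% of them, against 27.4%, 12.7%, 19.8%, 17.7% and 22.4% of the other peaks. The intervals overlapped on every chromosome, chromosome 2 included (14.9 to 31.4 against 9.87 to 16.1).

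For 23 of the 95 peaks (24.2%, 16.7 to 33.7) the annotation placed the centre at a different locus from the one with the nearest promoter. This held for 12.4% of the other peaks (9.66 to 15.9) and 14.6% of all peaks. Intergenic peaks are annotated to no locus and could not count, and they were a smaller share of the 95. With intergenic peaks left out, the shares were 28.4% (19.7 to 39.0) and 16.5% of the other peaks (12.9 to 20.9), and the intervals overlapped. The 23 scores ran from 54.3 to 752, and 13 of the 23 centres were within 1 kb of the member's TSS. No peak assigned to another gene was centred in, or at an end of, one of the 93 loci. The choice of loci left little room for this, because each is already nearest to a peak and would need another. Of the 23 peaks too, only 1 was annotated to a locus that was itself nearest to another peak. By class, 9 of the 50 promoter peaks (18.0%, 9.77 to 30.8), 9 of the 20 termination site peaks (interval 25.8% to 65.8%) and 3 of the 7 exon peaks were at another locus. Among the other peaks the shares were 12.2% for promoters (8.03 to 18.1), 47.3% for termination sites (34.7 to 60.2) and 6.78% for exons (4 of 59, 2.67 to 16.2). The exon share of the hypothetical protein genes, 42.9%, rests on 7 peaks and has a lower bound of 15.8%, and in all 3 classes the intervals overlapped.

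The strongest of these lay in LFY. It was assigned to AT5G61865, a locus with no described function, because its centre was 1502 bp upstream of that TSS. The centre itself was in intron 2 of 2 of LFY (chromosome 5 from 24843810 to 24847841, score 752). The 35S;LFY-GR construct carries LFY sequence in both libraries, and its part in this peak was not tested. A further peak of the list was 1079 bp away, at the promoter of GUT1 (score 429), the gene on the other side of LFY in the gene order.

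The other peaks at a termination site of a neighbour included 2 strong ones. A peak assigned to LSH2 (AT3G04510, score 617, 361 bp downstream of its TSS, chromosome 3 from 1215581 to 1217613) was centred at the end of THA2, a threonine aldolase gene. LSH2 belongs to the ALOG family of nuclear proteins, as does the boundary gene LSH3. A peak assigned to AT4G35905 (533, 1532 bp downstream) was centred at the end of FD, a bZIP gene whose product acts with FT in flowering, and lay 2404 bp from the peak upstream of FD (1549). The weaker of the FD peaks was thus the one assigned to the hypothetical protein gene.

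The remaining termination site peaks had scores of at most 305. They were assigned to AT2G45060 at the end of the translocon gene SEC61 BETA (305, 520 bp downstream of the TSS), to AT5G49710 at AT5G49700 (159, 1041 bp upstream) and to AT2G23755 at the BELL homeobox gene BLH4 (132, 2829 bp upstream). The peak of AT4G21216 was at the end of LpxD2 (107, 2081 bp upstream) and that of AT1G04000 at the end of AT1G03990 (73.7, 616 bp downstream). AT5G01010 had its peak at the end of AT5G01015 (63.4, 362 bp downstream), and AT1G30475 at the end of the splicing factor gene DRT111 (55.7, 3424 bp upstream). Among these peaks, 4 of the 7 were centred upstream of the TSS of the hypothetical protein gene.

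Promoter peaks named for another locus were near both start sites. Those of AT1G52343 (score 544, at the noncoding RNA gene AT1G52347), AT3G27340 (399, at AT3G27330) and AT1G78890 (303, at AT1G78882) were centred 286, 147 and 213 bp upstream of the hypothetical protein gene. Those of AT3G52230 (219, at AT3G52220) and AT3G51636 (147, at AT3G51640) were centred 59 and 68 bp downstream of it. The peak of AT4G27980 (166, 545 bp upstream) was at the promoter of SLAH2, an anion channel gene. The peak of AT1G73020 (80.8, 129 bp upstream) was at that of VPS46.2, an endosomal sorting gene. AT5G43000 (54.5, 498 bp downstream) shared its peak with the ubiquitin-conjugating enzyme gene UBC18, and AT5G65166 (54.3, 97 bp upstream) with SDH2-3, which encodes a subunit of succinate dehydrogenase. None of these 9 centres was farther than 545 bp from the TSS of the hypothetical protein gene.

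The last 4 lay inside a neighbouring gene. Exon 1 of 1 of AT3G14870 held the peak assigned to AT3G14880 (232, 1305 bp upstream). Exon 5 of 5 of CYP709B2, a cytochrome P450 gene, held that of AT2G46940 (74.7, 1909 bp upstream). The pseudogene AT2G19100 held one of the 2 peaks of AT2G19090 (77.2, 2566 bp upstream), and the other was in the AT2G19090 promoter (52.4, 195 bp upstream). Only 55 bp separated these peaks. The 3' UTR of AT3G63240 (exon 11 of 11) held that of AT3G63233 (148, 2288 bp upstream). All 4 centres were more than 1 kb upstream of the gene they were assigned to.

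**Figure D4:**
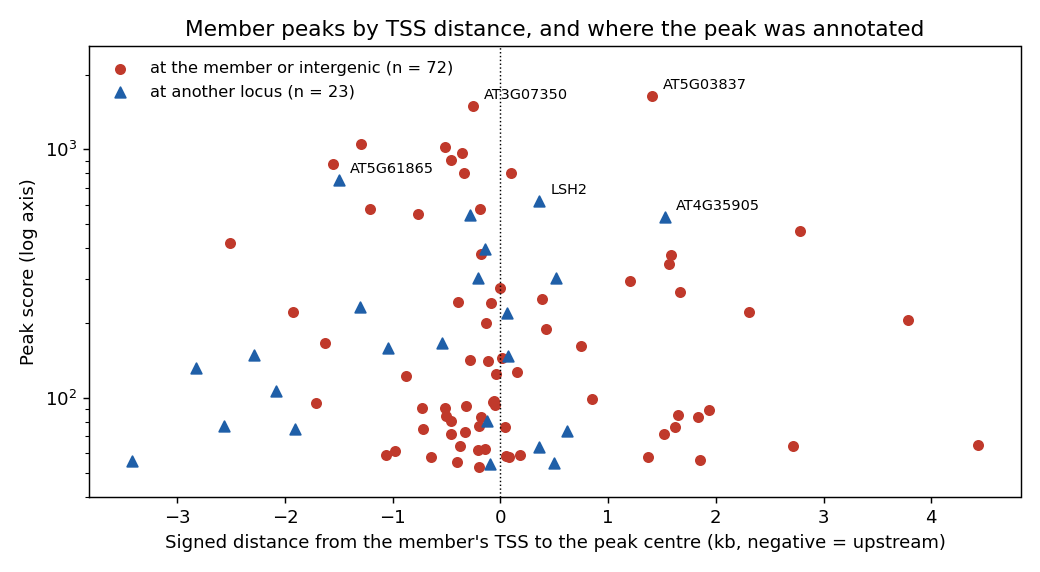
Peak score (log axis) against the signed distance in kb from the TSS of the hypothetical protein gene to the peak centre, for all 95 peaks. Blue triangles mark the 23 peaks annotated to another locus, with scores from 54.3 to 752, and red circles the 72 others.

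A few of the genes sit beside floral and meristem regulators in the gene order, as do some other peak loci. They were read against a list of such regulators, chosen with earlier results of these data known. Of the 81 loci found in the RefSeq gene table, 3 (3.70%, 1.27 to 10.3) had one as the next protein-coding gene. Of 418 other peak loci 6 did (1.44%, 0.659 to 3.10), and the intervals overlapped. Regulators were matched by symbol, so one that the gene table gives under another symbol was not counted. Missed in this way were AGL20 (SOC1) beside AT2G45650, MP (ARF5) beside AT1G19840 and AFO (FIL) beside AT2G45200, all other peak loci. The list also held BLH without a number, which matched no symbol. BLH4 beside the hypothetical protein gene AT2G23755 and BLH1 beside the other peak locus AT2G35950 were therefore not counted. Both shares are too low, and they cannot be set against each other. The 3 hypothetical protein genes counted were AT5G61865 beside LFY, AT4G35905 beside FD, and AT1G24265 beside SEP3, a MADS-box gene of floral organ identity. The peak of AT1G24265 was intergenic, 1712 bp upstream of it, with a score of 95.1 (chromosome 1 from 8598089 to 8599418). AT5G03837 is absent from the table, and the next protein-coding locus code is that of TFL1, which keeps the inflorescence from turning into a flower. Locus codes follow the order of genes along a chromosome only approximately.

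Other neighbours were picked after the gene order had been read, so they are examples and not a count. AT5G28491 (806) is next to LSH1, which like LSH2 and LSH3 is an ALOG family gene. AT1G31130 (549.5) is next to the MADS-box gene GOA, and AT1G68650 (90.8) is next to PAN, a bZIP gene that sets floral organ number. AT1G26773 (score 250, chromosome 1 from 9263685 to 9265887) is next to MYB117, a gene of lateral organ separation. Auxin genes occurred too, with the efflux carrier gene PIN3 beside AT1G70944 (76.2) and the response factor gene ARF2 beside AT5G61997 (89.5). By locus code alone, AT3G62988 (469.7) is next to the auxin receptor gene TIR1, AT1G22767 (score 189.9) to the clock gene GI, and AT2G45161 (162) to HAM1, a GRAS gene of the shoot meristem.

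Peaks of hypothetical protein genes had another peak within 10 kb in 22 of 95 cases (23.2%, 15.8 to 32.6), against 24.4% of the other peaks (20.6 to 28.7). In 8 of the 22 the nearest other peak belonged to the same set, in 4 pairs. AT3G07350 and AT2G19090 each had 2 peaks of their own. AT2G26520 (127) and the adjacent gene AR781 (57.9) had peaks 3002 bp apart, and AT3G51650 (199.7) and AT3G51636 (147) had peaks 4121 bp apart. In the other 14 the nearest peak was that of another gene, and the hypothetical protein gene had the higher score in 8 and the lower in 6.

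The neighbours of the 6 with the lower score were genes of several kinds. LBD18, a LOB domain transcription factor gene, had a score of 487, and the peak of AT2G45412 (58.1) lay 903 bp from it. AIF1, a gene of brassinosteroid signalling, had 263, and that of AT3G05810 (56.4) lay 510 bp away. The expansin gene EXPB3 had 288, and that of AT4G28230 (63.8) lay 944 bp away. ACR8, which encodes an ACT domain protein, had 152, and that of AT1G12423 (62.1) lay 203 bp away. These 4 weaker peaks had scores under the median of the 95, but they were named from peaks already picked for the lower score. The rest of the 6 were AT1G69430 (63.8), 5748 bp from the peak of AT1G69420 (90.15), and AT4G35905 (533), beside FD. The score of AT4G35905 was above that median. Among those with the higher score was AT2G45161 (162), 9485 bp from the peak of the YABBY gene AFO (54.25).

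Some features of annotation differed in frequency between these loci and the other peak loci. In Arabidopsis the first genome annotation numbered loci in steps of 10, and later additions took codes in between. Of the 93 loci, 29 (31.2%, 22.7 to 41.2) had a code that does not end in 0, against 32 of 419 other peak loci (7.64%, 5.46 to 10.6). In the gene table the share was 14.2% of 27444 protein-coding genes (13.8 to 14.6). Among 398 other protein-coding peak loci it was 4.02% (2.49 to 6.43). Of the 81 hypothetical protein genes found there, 17 had such a code (21.0%, 13.5 to 31.1), and that interval holds 14.2%. The remaining 12 loci were absent from the table, against 1 of the 419 others. These 12 were described as protein-coding in the peak list, and all 12 had a code that does not end in 0.

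Scores differed with the kind of code. The 29 peaks at codes that do not end in 0 had a median score of 162 (90.7 to 533), and the 66 at codes that do had 97.8 (83.5 to 166). The intervals overlap over most of the lower one. Of the 29, 11 were among the 133 highest-scoring peaks of the list (37.9%, 22.7 to 56.0), against 14 of 66 (21.2%, 13.1 to 32.5). Among the other peaks the medians ran the opposite way, 119 (83.3 to 170) at the 33 peaks with such codes and 135 (121 to 155) at the 401 without. The 12 loci absent from the table had scores from 54.3 to 1643.9, with a median of 155 (62.1 to 469.7).

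**Figure D5:**
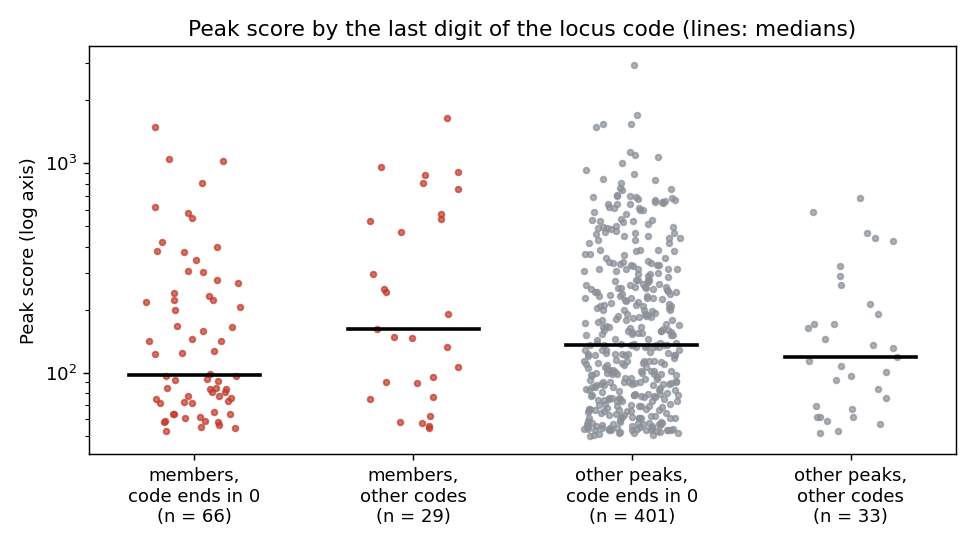
Peak score (log axis) for hypothetical protein genes (red) and other peaks (grey), split by whether the locus code ends in 0, with 1 point per peak and lines at the medians. The medians are 97.8 and 162 for the 66 and 29 red peaks, and 135 and 119 for the 401 and 33 grey ones.

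Only 5 of the 93 loci (5.38%, 2.32 to 12.0) had a symbol other than their code in the gene table. Of other peak loci 63.7% had one (59.0 to 68.2). Having no symbol is close to the description by which the loci were chosen, so this difference is not independent of the choice. Besides LSH2, they were HYP1 (AT3G01100, score 142, 280 bp upstream), GXM2 (AT4G09990, a glucuronoxylan methyltransferase gene of cell wall xylan, 98.7, 850 bp downstream), CGLD27 (AT5G67370, 83.7, 1834 bp downstream) and AR781 (AT2G26530, 57.9, 644 bp upstream). Of these 5, only LSH2 had a peak among the 133 highest-scoring. The description in the peak list therefore also covered genes that the table names.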

How the data were processed

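ChIP-seq of 1 LFY library and 1 input library was deposited as 1 annotated list of peaks. Per the submitters' processing notes, FastQC, MACS 1.4, HOMER and the TAIR10 build were used. Per the file headers, a peak set named LFYGR2 against an unnamed contrast was annotated with HOMER annotatePeaks.pl and its tair10 set. The ChIP library is titled LFYGR, and that the list comes from it is assumed. For the aligner, the score threshold and any pooling, the sources used here say nothing. The deposited score of each peak is the authors' caller's own value, with no stated scale, and was used as a rank within the list. Read counts were not used here, so depth and the precision of a single score are unknown. Intervals on shares (95%, Wilson) and on medians (exact binomial order statistics) cover counting error between peaks only.

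Rows with the description were taken as members, except those of AT2G31160, and width was computed as end minus start plus 1. The locus named by the annotation was compared with that of the nearest promoter. Symbols, gene types and gene order came from NCBI RefSeq genes (assembly TAIR10.1), whose coordinates were not used. It held 81 of the 93 loci, and for the others the nearest protein-coding locus codes were read. The members and lists were chosen with earlier results of these data known, and no test was made. Genes named are those of the 20 highest-scoring member peaks, members with more than 1 peak, peaks annotated to another locus, the 5 widest and 5 most distant peaks, members beside a listed regulator and members with a symbol. Other genes were named after their values were seen. Protein length, promoter sequence and the LFY motif were planned and not used here. Alternatives changed the description, the unit counted, the score and distance limits, the gene type and the annotation column. Code for intervals was tested on simulated data. Python 3.11.15, pandas 2.3.3, NumPy 2.4.6, SciPy 1.17.1 and matplotlib 3.10.9 were used.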

Additional observations from a re-analysis of the deposited data

How the results depend on the processing

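Each of 9 results was recomputed under up to 9 alternative settings, 74 values in all, and 71 of them stayed within the interval of the reported value or, for the number of peaks, within 1.5 times of it. The other 3 came from stricter score limits. With the 265 highest-scoring peaks of the list 46 member peaks were left, and with the 133 highest-scoring 25, which follows from using fewer peaks. Among those 133 the intergenic share of member peaks was 24.0% (11.5 to 43.4), against 29.6% (21.8 to 38.8) of the other peaks, and the cause was not tested. The promoter share there was 48.0% against 33.3%. The share annotated to another locus, to which intergenic peaks could not count, was 28.0% against 10.2%. For each of these shares the intervals overlapped. All 95 descriptions were exactly the same 2 words, so that setting changed no value. The detailed annotation column also left the member values as they were. Both settings count among the 71 without having moved anything for the members. The 71 concern member values only, and not their difference from the other peaks. The setting without the 5 members that have a symbol was chosen after the data were seen. No paired analysis was possible because there was 1 library of each kind. Leaving out a replicate was not possible for the same reason. Scores near the authors' limit are the least certain, and without read counts the error of no single peak can be given.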

Other observations

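The detailed annotation column gave the same class as the main annotation for all 95 peaks of hypothetical protein genes, which allows a share of up to 3.16% with another class. It differed for 5 of the 434 other peaks (1.15%). The longest distance from a peak of these genes to any other peak was 1707437 bp, at AT5G28491 on chromosome 5, and the median over the 95 was 50088 bp (35736 to 78349), against 52981.5 bp (38333 to 67810) for the other peaks.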
